A study of Mus musculus with 4 samples.

Results

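These are the cells of the mouse stomach corpus whose RNA held the mucin of the surface and a mucin or gastrokine of the gland neck in the same barcode. A barcode counted as a cell with no fewer than 500 UMIs (counted RNA molecules), 200 or more detected genes and a mitochondrial share of UMIs up to 50%. Members were chosen by their measured UMIs: a cell was a member if it had at least 2 UMIs of Muc5ac together with at least 2 UMIs of Muc6 and Gkn3 summed. Cells with 50 or more UMIs per 10000 of the acid pump genes Atp4a and Atp4b, or of the chief cell genes Chia1 and Cblif, were left out, which removed 171 cells. In all, 1599 of 38732 cells met the rule. They are called both-mucin cells below. Cells with at least 2 UMIs of Muc5ac and fewer than 2 of Muc6 and Gkn3 are called Muc5ac-only, and cells with the opposite pattern neck-mucin-only, under the same exclusions.

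The samples were 4 single-cell libraries of corpus epithelium from wild-type C57BL6/J mice aged 6 to 7 weeks, made with PIPseq T20 3′ capture. The untreated mice received PBS. The other mice received L635, a compound toxic to acid-secreting parietal cells, as 1 oral dose of 350 mg/kg, and were sampled at day 1 or at day 3. A further library came from mice at day 3 after L635 that also received AREG (amphiregulin), a ligand of the EGF receptor, whose dose and route the labels do not state. Each group was 1 library and the number of mice behind each is not given, so no difference between libraries has a replicate check. Libraries held 56007532 to 98893436 UMIs and 3926 to 13897 cells, with median UMIs per cell between 2507 and 3013.5. Only 8 cell barcodes were shared between any of the libraries.

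Pit (foveolar) cells line the surface and the upper gland of the stomach and secrete the gel-forming mucin MUC5AC with the trefoil peptide TFF1 and the gastrokines GKN1 and GKN2. Mucous neck cells lie deeper and secrete MUC6, a mucin with a different sugar coat, together with the trefoil peptide TFF2. In mice, Gkn3 marks neck cells. Both lineages arise from dividing cells of the gland isthmus between them, and neck cells are known to give rise to pepsinogen-making chief cells. Spasmolytic polypeptide-expressing metaplasia, or SPEM, is a change of the injured corpus in which cells that carry Muc6 and Tff2 replace the normal gland base.

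Both-mucin cells numbered 137 of 13897 cells in the untreated library, 310 of 3926 at day 1, 580 of 12923 at day 3 with AREG and 572 of 7986 at day 3. The shares were 0.986% in untreated cells (95% exact Clopper-Pearson interval 0.828 to 1.16), 7.90% at day 1 (7.07 to 8.78), 4.49% at day 3 with AREG (4.14 to 4.86) and 7.16% at day 3 (6.61 to 7.75). All intervals cover counting error only. The share was thus higher in each of the 3 libraries from L635-treated mice than in the untreated library, with a log2 ratio of 3.00 at day 1 (Katz interval 2.72 to 3.29) and of 2.86 at day 3 (2.60 to 3.13). AREG went with a lower share than day 3 alone, at a log2 ratio of -0.67 (-0.84 to -0.51). That ratio was -0.40 (-0.72 to -0.08) with cells thinned to 2000 UMIs and -0.26 (-0.74 to 0.22) with Muc6 alone in the rule. Between day 3 and day 1 the log2 ratio was -0.14 (-0.33 to 0.05), and its direction depended on depth: it was 1.31 when every cell was thinned to 1000 UMIs and 1.40 at 2000. Among all cells with Muc5ac, 3.19% were both-mucin cells in the untreated group, 13.9% at day 1, 11.8% at day 3 with AREG and 16.7% at day 3. Among all cells with the neck mucins the shares were 17.0%, 69.7%, 36.9% and 46.4% in the same order. At day 1 most cells with neck mucin RNA therefore met the limit of 2 Muc5ac UMIs too, and 135 cells were neck-mucin-only, against 670 of the larger untreated library. Of the day 1 cells rich in the acid pump genes, 25.5% also held at least 2 Muc5ac UMIs. The part of such background in the 69.7% was not tested.

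**Figure D1:**
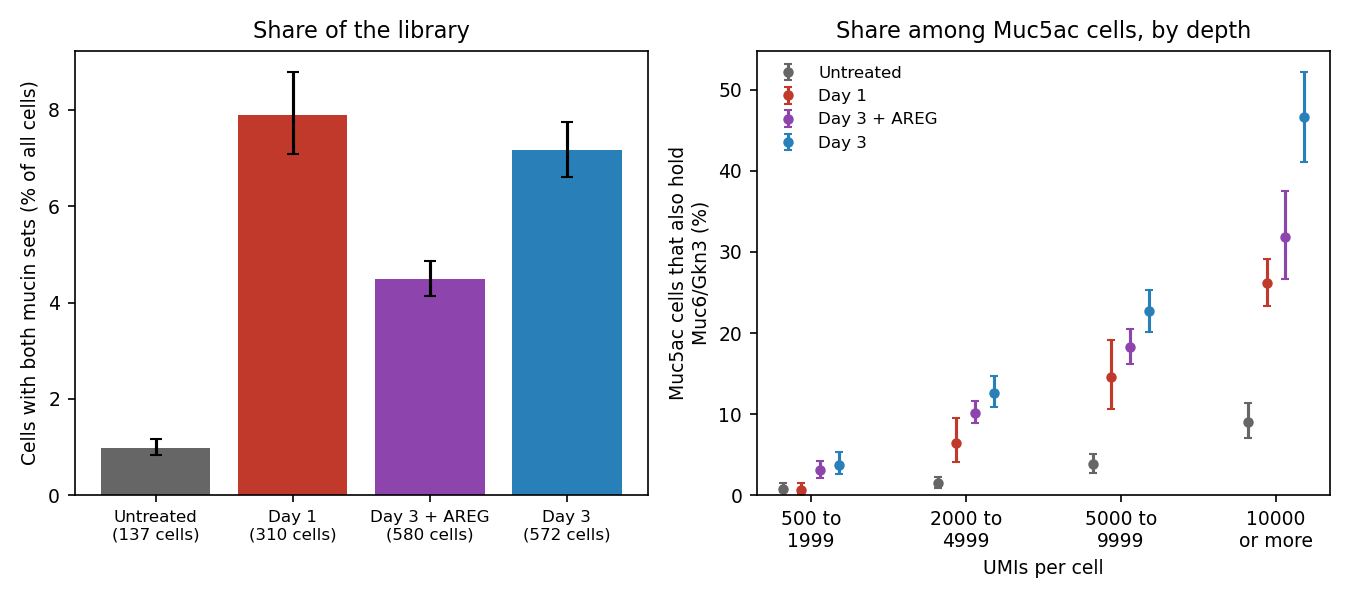
Left, both-mucin cells as a percentage of all cells in each library, with exact 95% intervals for counting error. Right, the percentage of Muc5ac cells that also hold Muc6 or Gkn3 at 4 ranges of UMIs per cell, with the same intervals: at 10000 UMIs or more it was 9.05% in untreated cells and 26.1%, 31.9% and 46.6% at day 1, day 3 with AREG and day 3.

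Because the rule counts UMIs, it picks deeply sequenced cells. Both-mucin cells had median UMIs of 9647 in the untreated group, 21622 at day 1, 5577 at day 3 with AREG and 6678.5 at day 3. Muc5ac-only cells had 4134.5, 4455, 3366 and 3547.5, and neck-mucin-only cells 2592.5, 6127, 2717 and 3233. At matched depth the order of the libraries stayed in part. Among Muc5ac cells of 2000 to 5000 UMIs, 1.50% of untreated cells held the neck mucins (0.920 to 2.31), against 6.44% at day 1 (4.13 to 9.51), 10.2% at day 3 with AREG (8.93 to 11.6) and 12.7% at day 3 (10.8 to 14.7). Within the same range day 1 thus lay below day 3. Of the both-mucin cells, 32.8% in the untreated library and 29.7% at day 1 were among the deepest 5% of their library, and 12.1% and 9.09% at day 3 with and without AREG. Droplets holding 2 cells were not removed, and their part in these shares was not tested.

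RNA free in the suspension can give UMIs to cells that do not express a gene. A near-empty barcode, at a median depth of 38 to 97 UMIs, would hold 0.00745 to 0.0467 neck mucin UMIs at the free RNA levels given below. For Muc5ac it would hold 0.0610 to 0.109. Acid-pump-rich cells, which should lack all 3 genes, were counted in the same way as a background. How much of their mucin RNA was free RNA was not tested. Of the acid-pump-rich cells, 6.15% held at least 2 neck mucin UMIs in the untreated group, 5.37% at day 1, 3.80% at day 3 with AREG and 9.02% at day 3. Their median depths were 1829.5, 4355, 3348 and 3716.5 UMIs. After thinning to 2000 UMIs, 0.717% of untreated Muc5ac cells met the rule, below the 5.97% of untreated acid-pump-rich cells that held the neck mucins (4.98 to 7.08), so the untreated share is not read as expression of both sets. At that depth the Muc5ac cells that met the rule were 1.90% at day 1 (1.22 to 2.81), where the background was 1.54% (0.318 to 4.43), with overlapping intervals. They were 5.52% at day 3 with AREG (4.73 to 6.39), where it was 1.70% (1.22 to 2.31), and 6.07% at day 3 (5.13 to 7.12), where it was 4.28% (3.28 to 5.47), so the intervals overlapped at day 3 too. Thinned to 1000 UMIs, day 3 gave 2.03% (1.48 to 2.71), below a background of 2.29% (1.64 to 3.11), and day 3 with AREG 1.76% (1.30 to 2.32), where it was 0.929% (0.618 to 1.34). In unthinned cells of 2000 to 5000 UMIs the background was 3.70% at day 1 (0.452 to 12.7) and 3.53% at day 3 (2.07 to 5.60). The day 3 share given above lay clear of it and the day 1 share did not. At 5000 to 10000 UMIs both lay clear. Day 1 gave 14.5% (10.7 to 19.1) against 0% (0 to 6.49), and day 3 22.7% (20.1 to 25.3) against 7.77% (5.34 to 10.8). Untreated cells stayed below their background there, at 3.81% against 12.9%. A Muc5ac background was seen too: 25.5% of day 1 acid-pump-rich cells held at least 2 Muc5ac UMIs, against 4.41% of untreated ones, and 8.21% against 4.11% when both were thinned to 2000 UMIs.

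Many members lay close to the limit. Exactly 2 neck mucin UMIs were found in 76 untreated members, 106 at day 1, 279 at day 3 with AREG and 288 at day 3, and 474, 369, 871 and 791 further cells fell just outside with 1 such UMI. At least 5 UMIs of each mucin set were held by 11, 82, 96 and 81 members. The Muc5ac side was usually the larger. More Muc5ac than neck mucin UMIs were held by 103 of 137 untreated members, 220 of 310 at day 1, 429 of 580 at day 3 with AREG and 469 of 572 at day 3. UMIs were counted at the 3′ ends of the RNAs, and how well each gene is captured is not known. Summed over the members, Muc5ac stood at 1079 CPM (UMIs per 1000000), 1885, 1668 and 2385 CPM in the 4 libraries, against 1858, 4848, 2380 and 3156 CPM in Muc5ac-only cells. The neck mucins stood at 249, 227, 706 and 1136 CPM in members, against 2140, 1136, 3274 and 6513 CPM in neck-mucin-only cells. These levels are set in part by the rule and were not tested. Free RNA of near-empty barcodes held 843, 2874, 881 and 1245 CPM of Muc5ac in the same order, above the members at day 1. It held 78.5, 96.3, 196 and 312 CPM of Muc6, where members had 47.5, 170, 96.5 and 147 CPM. For Gkn3 it held 229, 99.7, 265 and 640 CPM, where members had 201, 57.3, 610 and 990 CPM. The part of free RNA in the mucin levels of the members was not tested.

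Which neck gene the members held differed between libraries. Gkn3 without any Muc6 was found in 65.7% of untreated members, 17.4% at day 1, 72.1% at day 3 with AREG and 68.5% at day 3. Muc6 without any Gkn3 was found in 13.1%, 52.3%, 5.00% and 2.80%. Only 21.2% to 30.3% of members held both genes. Neck-mucin-only cells held Gkn3 without Muc6 in 12.4% of untreated cells, 3.70% at day 1, 15.9% at day 3 with AREG and 14.7% at day 3. The classes are not matched in this, since members had a median of 2 or 3 neck mucin UMIs and a cell with few UMIs often shows 1 gene, and the difference was not tested. As a share of all neck mucin UMIs, Muc6 made up 19.1%, 74.8%, 13.7% and 12.9% in members and 30.2%, 72.1%, 35.7% and 34.3% in neck-mucin-only cells in the order of the libraries. With Muc6 alone in the rule, members made up 0.751% of cells at day 3 against 5.73% at day 1, which is a log2 ratio of -2.93, while the ratio of day 1 to untreated was 4.73.

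**Figure D2:**
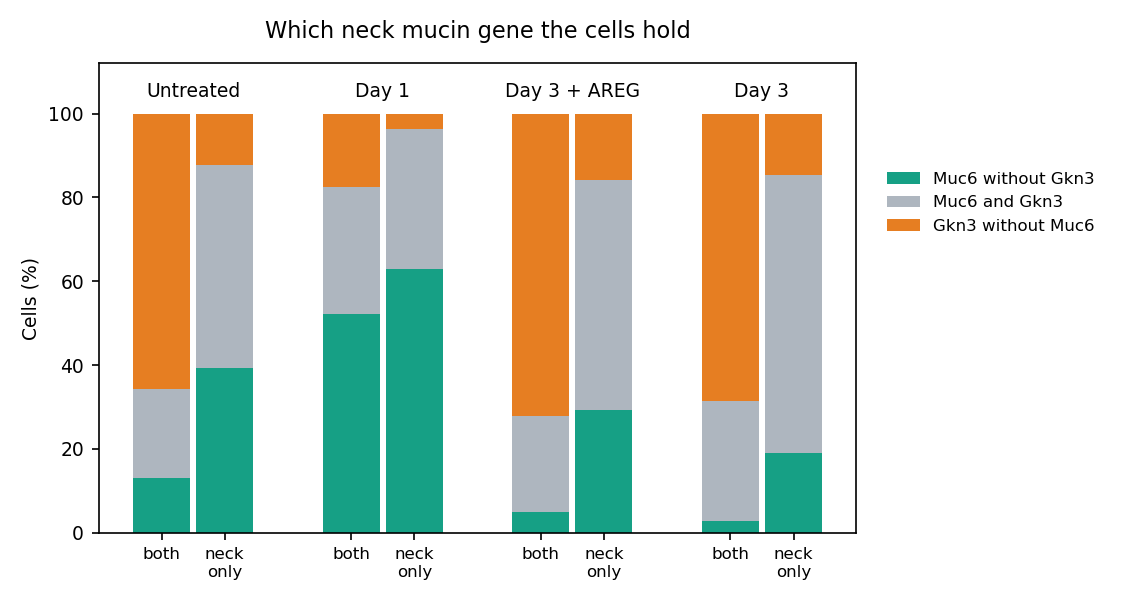
Percentage of both-mucin cells and of neck-mucin-only cells in each library that held Muc6 without Gkn3, both genes, or Gkn3 without Muc6. Members at day 1 were the only ones with more Muc6-without-Gkn3 cells (52.3%) than Gkn3-without-Muc6 cells (17.4%).

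The day 1 members with Gkn3 and those with Muc6 also differed in what else they made. The 54 cells with Gkn3 without Muc6 had 69650 CPM of Gkn1 and 3345 CPM of Pgc, which encodes the pepsinogen progastricsin. The 162 cells with Muc6 without Gkn3 had 5526 CPM of Gkn1 and 35155 CPM of Pgc, with similar median depths of 19395.5 and 19560 UMIs. Genes of the G2 and M phases of the cell cycle summed to 139 CPM in the first set and 833 CPM in the second. In the untreated library the 34 members with at least as many neck mucin as Muc5ac UMIs had 101467 CPM of Pgc and 38061 CPM of Tff2, while the 103 members with more Muc5ac had 24276 CPM of Pgc and 24978 CPM of Tff2. The subsets were formed on the mucin genes of the rule, so these values are a description.

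Markers of both lineages were present, as the name of the set implies, and those of immune, stromal and antral cells were scarce. Of 5 immune markers the summed level was 0.457 to 2.86 CPM in members, of 4 stromal markers 0.715 to 2.31 CPM with Col1a1 at 0 in all 4 libraries, and of 3 antral markers 0.477 to 4.26 CPM. Endothelial markers summed to 16.2 to 36.0 CPM in members, 11.9 to 29.6 in Muc5ac-only cells and 19.8 to 54.5 in neck-mucin-only cells, and tuft cell markers to 65.3 to 133 CPM, 67.0 to 166 and 46.8 to 121 in the same order of classes. A list of 9 parietal genes outside the rule summed to 464 to 820 CPM in members, 491 to 925 in Muc5ac-only cells and 413 to 666 in neck-mucin-only cells. Few genes made up most of these sums in members. They were Ezr for the parietal list (307 to 555 CPM), Cdh5 for the endothelial (13.8 to 33.4) and Pou2f3 with Avil for the tuft list. Other listed genes were scarce, such as parietal Slc26a7 (0 to 0.770 CPM) and tuft Dclk1 (1.43 to 3.46) and Trpm5 (0 to 1.42). Granin and hormone genes of endocrine cells summed to 62.1 to 326 CPM in members, 42.1 to 273 in Muc5ac-only cells and 25.6 to 4390 in neck-mucin-only cells, so the last class carried most endocrine RNA in 3 of 4 libraries.

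The classes were compared by summing UMIs per class and library and fitting edgeR's quasi-likelihood model with the library as a block, so that the 4 libraries served as replicates of the class difference. P-values are Benjamini-Hochberg adjusted over 12144 genes, and a gene was called at an adjusted p under 0.05. Since the libraries differ in treatment, the test asks for a difference that they share. The 7 genes of the rule are not read as results, and genes that travel with Muc5ac or the neck mucins are partly set by it. Against Muc5ac-only cells, 618 genes were higher in both-mucin cells (5.09%) and 471 lower (3.88%). Against neck-mucin-only cells, 1943 were higher (16%) and 1336 lower (11%). The first contrast leaned on single libraries and on depth. Without the AREG library 21 genes were higher and 2 lower than in Muc5ac-only cells, without day 1 297 and 199, without day 3 341 and 283, within 2000 to 8000 UMIs 25 and 2, and without the deepest 5% of cells 114 and 22.

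The summed levels of the pit genes Gkn1, Gkn2, Tff1 and Psca lay between the single-mucin classes, nearer to Muc5ac-only cells in 3 of the 4 libraries. At day 1 Gkn1 and Gkn2 were nearer to neck-mucin-only cells, and Tff1 and Psca lay about midway. Gkn1, a gastrokine of the surface mucus, stood at 77621 CPM in untreated members, 17526 at day 1, 62311 at day 3 with AREG and 95679 at day 3. Muc5ac-only cells had 112108, 46465, 98845 and 121162 CPM, and neck-mucin-only cells 3250, 1161, 4090 and 5277 CPM. The summed level of the members thus lay below the first class and above the second in every library. The log2 fold changes were -0.84 (SE 0.22, edgeR adjusted p = 0.031) and 4.48 (SE 0.25, adjusted p = 1.25e-08). On a linear scale from neck-mucin-only to Muc5ac-only cells, the Gkn1 level of the members lay 68.3% of the way in the untreated group, 36.1% at day 1, 61.4% at day 3 with AREG and 78.0% at day 3. Tff1, the pit trefoil peptide, gave 69.5%, 47.6%, 68.2% and 82.3%. Day 1 members were the least pit-like of the 4 sets by these genes. The median member had 68277, 1970, 34878.5 and 116580 CPM of Gkn1 in library order. The median Muc5ac-only cell had 118691, 37141.5, 93674 and 116971 CPM, and the median neck-mucin-only cell 2555, 951, 1703 and 2163 CPM. At day 3 the median member was thus close to the median Muc5ac-only cell. At day 1 it was nearer to the median neck-mucin-only cell, with an upper quartile of 10811.5 CPM among members.

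Of 12 listed pit genes, 11 were higher in members than in neck-mucin-only cells (median log2 fold change 3.25, against 0.03 for all genes tested) and 5 were lower than in Muc5ac-only cells (median -0.57, against -0.01). Other genes with this pattern included Slc5a5, the iodide transporter, at 79.5, 9.18, 145 and 282 CPM in members and 146, 25.3, 286 and 410 CPM in Muc5ac-only cells in the order of the libraries. Its log2 fold changes were -1.02 (adjusted p = 0.00324) against Muc5ac-only cells and 3.94 (adjusted p = 1.19e-08) against neck-mucin-only cells. Capn9, a digestive-tract calpain protease, differed by -1.02 and 4.46, and the surface protein gene Lypd8, whose product keeps bacteria off the colon epithelium in mice, by -0.85 and 4.25, all called. None of Gkn1, Slc5a5, Capn9 and Lypd8 was called lower than in Muc5ac-only cells without the AREG library or within 2000 to 8000 UMIs, where their log2 fold changes were -0.93, -0.68, -0.81 and -0.80, while each stayed called against neck-mucin-only cells. Duox2, which makes hydrogen peroxide at the surface, was higher than in neck-mucin-only cells by 4.24 (adjusted p = 6.58e-06) and was not called against Muc5ac-only cells (-0.83, adjusted p = 0.065). Interferon-stimulated genes followed the pit genes in the model, with 8 of 8 tested higher than in neck-mucin-only cells (median 1.90) and 1 lower than in Muc5ac-only cells. Their sum at day 1 did not, at 48.6 CPM in members, 48.7 in neck-mucin-only cells and 33.9 in Muc5ac-only cells. Of 8 genes of the NRF2 antioxidant response, 6 were higher than in neck-mucin-only cells (median 0.98), among them Nqo1, a quinone reductase, by 2.48.

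**Figure D3:**
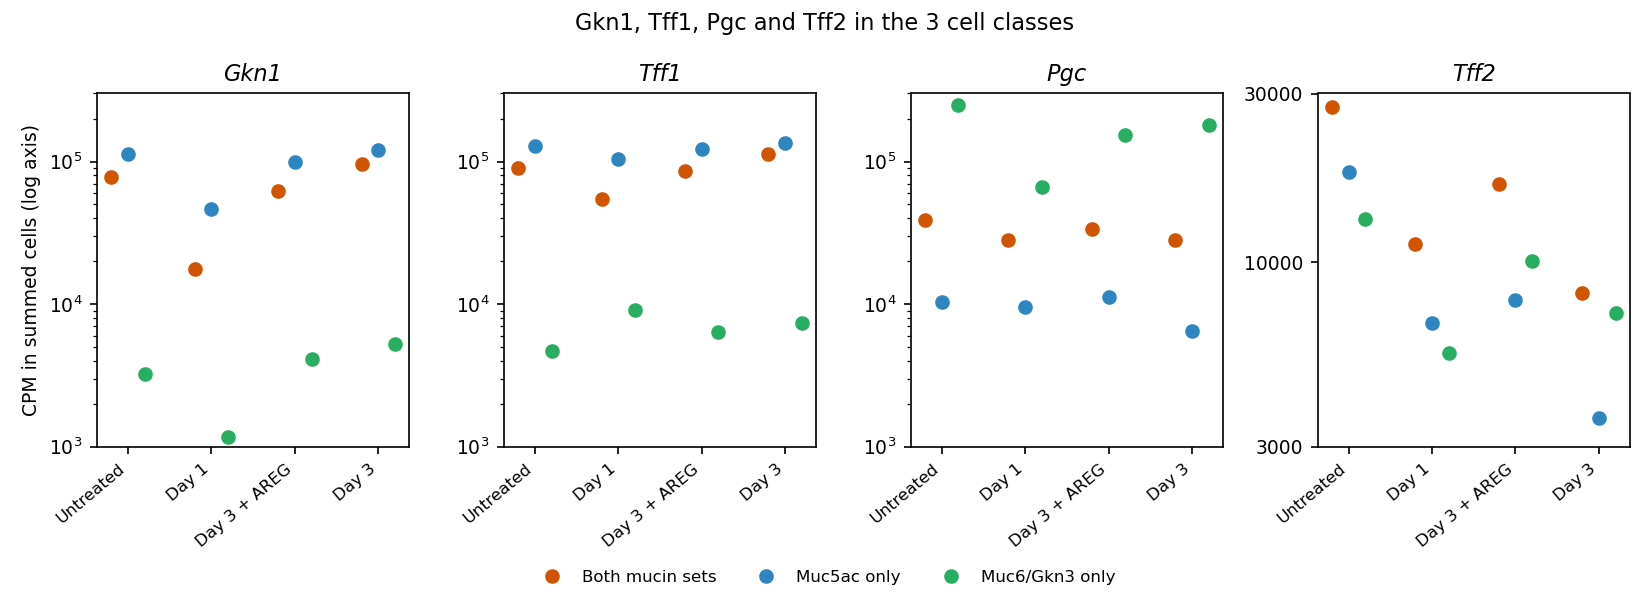
CPM of Gkn1, Tff1, Pgc and Tff2 in summed cells of the 3 classes in each library, on log axes; each point is 1 class in 1 library. Members lie between the other classes for Gkn1, Tff1 and Pgc and above both for Tff2 (27473, 11214, 16638 and 8153 CPM).

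The neck and chief cell genes showed the opposite pattern. On the linear scale given above, Pgc in members lay 88.0%, 67.1%, 84.2% and 87.5% of the way to Muc5ac-only cells, in library order. Pgc stood at 38998 CPM in untreated members, 28198 at day 1, 33577 at day 3 with AREG and 28136 at day 3, against 10310, 9560, 11126 and 6500 CPM in Muc5ac-only cells and 249903, 66268, 152825 and 180259 CPM in neck-mucin-only cells. The log2 fold changes were 1.68 (adjusted p = 0.00406) and -1.93 (adjusted p = 0.000107), and the first, at 1.74, was not called without the AREG library. The median member had 19130, 24546, 20431 and 3808 CPM of Pgc in library order. The median Muc5ac-only cell had 5784, 3649, 6070 and 3320 CPM, and the median neck-mucin-only cell 287964, 50029, 153384 and 181670 CPM. At day 3 the median member was thus close to the median Muc5ac-only cell. Free RNA of near-empty barcodes held 17076 to 68357 CPM of Pgc, more than the members in 3 of 4 libraries, and its part in the Pgc levels was not tested. The neck list had 6 genes, and all were higher in members than in Muc5ac-only cells (median 1.19). Against neck-mucin-only cells 4 were lower and 1, Tff2, was higher. A4gnt, the enzyme that adds the terminal sugar typical of gland mucin, stood at 32.9, 25.4, 23.6 and 23.7 CPM in members and at 9.77, 8.32, 11.7 and 9.77 CPM in Muc5ac-only cells. In neck-mucin-only cells it reached 330, 91.7, 142 and 168 CPM, so the members had about the same low level in every library. Spdef, a transcription factor of mucous cells, was higher than in Muc5ac-only cells by 0.82 and lower than in neck-mucin-only cells by 1.44 on the log2 scale. The water channel gene Aqp5 was higher by 2.06 than in Muc5ac-only cells and lower by 2.82 than in neck-mucin-only cells, from levels of 3.20 to 16.6 CPM in members.

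The largest fold change over Muc5ac-only cells among the named genes was that of Spp1, which encodes the secreted phosphoprotein osteopontin. It stood at 245, 518, 309 and 175 CPM in members, 39.9, 107, 61.3 and 23.0 CPM in Muc5ac-only cells and 1026, 2660, 1673 and 990 CPM in neck-mucin-only cells. The 3 classes did not overlap, at log2 fold changes of 2.42 (SE 0.16, adjusted p = 9.27e-07) and -2.02 (SE 0.16, adjusted p = 4.83e-07). Bpifb1, a secreted protein of mucous epithelia, behaved alike, by 2.35 and -2.10. The pepsinogen gene Pga5 was higher than in Muc5ac-only cells by 1.84, but 60.6% of its day 3 UMIs in members came from 1 cell. Sst and Ghrl, which encode the hormones somatostatin and ghrelin, were the lowest named genes against neck-mucin-only cells, by -4.15 and -3.12, and belong to the endocrine RNA of that class given above. In the metaplasia list, 4 of 9 genes tested were higher than in Muc5ac-only cells and 5 were lower than in neck-mucin-only cells. Clu (clusterin), a secreted chaperone, stood at 3021, 7225, 1775 and 1237 CPM in members, 1713, 3395, 960 and 676 CPM in Muc5ac-only cells and 5820, 11562, 3477 and 2907 CPM in neck-mucin-only cells. Immediate early genes, which respond to stimuli and to tissue dissociation, were higher than in Muc5ac-only cells for 3 of 9 and lower than in neck-mucin-only cells for 8 of 9.

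A smaller group of genes lay beyond both single-mucin classes. In the same model 44 genes (0.362%) were higher in both-mucin cells than in either class and 15 (0.124%) were lower. Of the 18 listed genes of the G2 and M phases, 9 were among the 44: Aurka, Aurkb, Birc5, Ccnb1, Ccnb2, Cenpf, Nusap1, Tpx2 and Ube2c. Aurka and Aurkb are kinases of the mitotic spindle, Ccnb1 and Ccnb2 the B cyclins that start mitosis, Birc5 (survivin) and Cdca8 (borealin) partners of Aurora B, and Ube2c an enzyme that marks cyclins for destruction. All 18 listed genes had fold changes above 0 in both contrasts, with 11 called over Muc5ac-only cells (median 0.73) and 13 over neck-mucin-only cells (median 0.84). S-phase genes, which serve DNA replication, differed from this: 9 of 16 were higher than in Muc5ac-only cells (median 0.63), none was higher than in neck-mucin-only cells and 1 was lower (median -0.05).

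Ube2c stood at 185 CPM in untreated members, 172 at day 1, 215 at day 3 with AREG and 67.3 at day 3. Muc5ac-only cells had 105, 108, 98.5 and 23.7 CPM, and neck-mucin-only cells 71.7, 66.1, 91.3 and 69.4 CPM. The members lay above both classes in all libraries but day 3, where neck-mucin-only cells were slightly higher. The log2 fold changes were 0.87 (SE 0.26, edgeR adjusted p = 0.047) and 1.24 (SE 0.27, adjusted p = 0.00347). Aurkb stood at 28.8, 28.3, 22.6 and 6.73 CPM in members, 11.9, 18.6, 9.12 and 2.96 CPM in Muc5ac-only cells and 16.8, 21.5, 10.2 and 4.67 CPM in neck-mucin-only cells, above both in 4 of 4 libraries, by 0.95 (adjusted p = 0.00324) and 1.06 (adjusted p = 0.000427). Of the 44 genes, 19 were above both classes in every library and 24 in 3 of 4. Stmn1, a microtubule regulator common in dividing cells, was higher than in Muc5ac-only cells by 1.16 (adjusted p = 0.00324) but not called against neck-mucin-only cells (0.33, adjusted p = 0.196). On the lower side the named genes were Trp53inp2, an autophagy factor, and the non-coding Mir99ahg, both below both classes in 4 of 4 libraries. Trp53inp2 differed by -0.55 and -0.46 and Mir99ahg by -0.52 and -0.74. The other lower genes had low levels. Dpp10, for example, which was chosen after its values were seen, had 4.57 to 9.18 CPM in members.

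These calls went with depth and with 1 library. With cells of 2000 to 8000 UMIs only, edgeR called no gene as higher than both classes, and the median fold change of the 40 of the 44 genes tested there was 0.20 over Muc5ac-only and 0.11 over neck-mucin-only cells, against 0.75 and 0.80 with all cells. Of the 40, 37 kept their direction over Muc5ac-only cells and 26 over neck-mucin-only cells. At an unadjusted p under 0.05, edgeR's test gave 1052 and 2991 genes there in the contrasts with Muc5ac-only and neck-mucin-only cells, and DESeq2, run on all cells, called 46 genes as higher than both. No gene was called as higher than both without the AREG library or without the deepest 5% of cells, where all 44 kept their direction. The members were deeper in median UMIs than both other classes in every library.

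**Figure D4:**
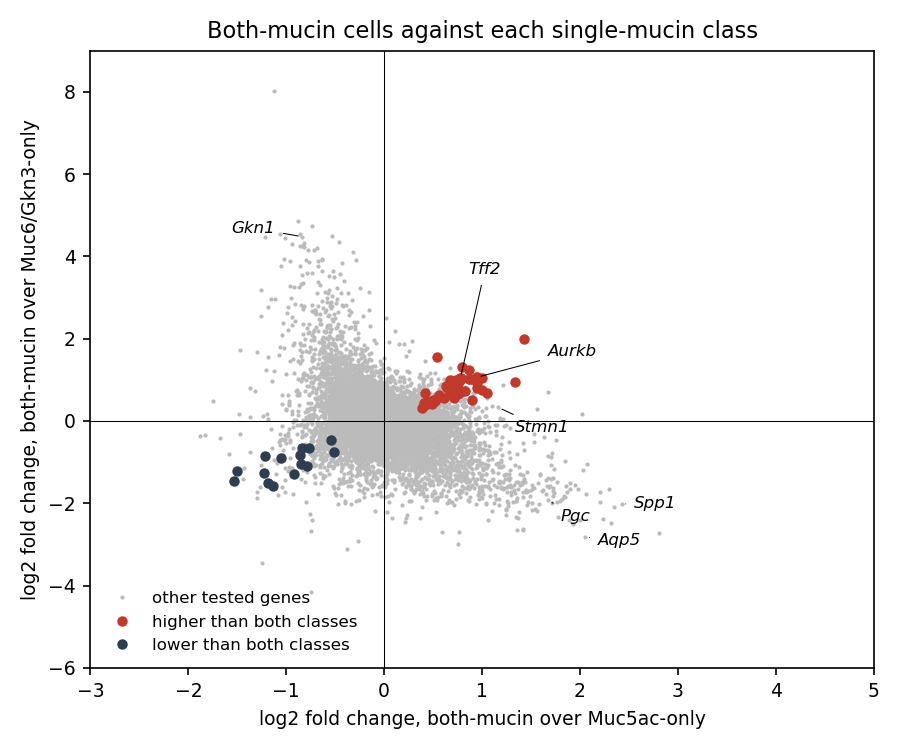
Log2 fold change of both-mucin over Muc5ac-only cells (x axis) and over neck-mucin-only cells (y axis) for each gene tested, without the genes of the rule. Most changed genes lie in the upper left or lower right, between the classes; the 44 genes higher than both and the 15 lower than both are coloured.

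Promoters of 3 of these genes, chosen because each holds both motifs, are shown because genes of late cell cycle move together in many tissues and share short promoter elements, the CCAAT box and the cell cycle homology region, here searched as TTTGAA. The stretches run from 250 bases before to 50 after the annotated start, from RefSeq on build GRCm38.p6, and capitals mark CCAAT and TTTGAA on either strand. That build is older than the one the counts were made on, and only the sequences are used. Ube2c lies on the plus strand at chr2:164769679-164769978, Aurka on the minus strand at chr2:172370521-172370820 and Cdca8 on the minus strand at chr4:124936868-124937167.
Ube2c: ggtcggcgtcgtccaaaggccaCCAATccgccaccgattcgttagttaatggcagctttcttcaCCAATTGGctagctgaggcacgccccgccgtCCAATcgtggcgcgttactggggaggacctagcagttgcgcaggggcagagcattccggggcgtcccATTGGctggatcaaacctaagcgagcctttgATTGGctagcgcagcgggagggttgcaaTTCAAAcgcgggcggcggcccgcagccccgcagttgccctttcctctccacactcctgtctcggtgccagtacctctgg
Aurka: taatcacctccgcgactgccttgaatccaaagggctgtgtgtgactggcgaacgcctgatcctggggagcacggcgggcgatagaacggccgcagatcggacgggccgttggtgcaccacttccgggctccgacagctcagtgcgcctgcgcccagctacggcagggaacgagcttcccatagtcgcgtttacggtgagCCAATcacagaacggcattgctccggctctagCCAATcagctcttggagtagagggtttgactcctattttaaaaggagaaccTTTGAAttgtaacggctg
Cdca8: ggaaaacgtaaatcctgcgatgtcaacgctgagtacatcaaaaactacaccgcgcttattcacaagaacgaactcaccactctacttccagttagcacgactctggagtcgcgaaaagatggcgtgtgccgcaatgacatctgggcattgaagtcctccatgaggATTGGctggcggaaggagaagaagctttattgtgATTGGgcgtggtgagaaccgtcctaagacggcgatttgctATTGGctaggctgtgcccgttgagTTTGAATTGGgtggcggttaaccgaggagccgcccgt
Of the 44 genes, 32 had a promoter in the table. CCAAT was found in 19 of the 32 (59.4%), against 37.9% of all 27025 promoters of that length. TTTGAA was found in 18 (56.2%), against 18.1%, and both motifs in 15 (46.9%), against 7.12%. Not all hold them: the Birc5 promoter had 0 matches to either, and that of Ccnb1 had 2 of CCAAT and 0 of TTTGAA. No pair of motifs was counted as 1 match, so adjoining matches such as the overlapping CCAAT and ATTGG of Ube2c and the TTTGAA with ATTGG of Cdca8 count for each motif. A match is a run of letters and not a measured binding site.

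Tff2 stood apart from the mitotic genes in its level. The neck trefoil gene had 27473 CPM in untreated members, 11214 at day 1, 16638 at day 3 with AREG and 8153 at day 3. Muc5ac-only cells had 17929, 6735, 7817 and 3605 CPM, and neck-mucin-only cells 13257, 5517, 10050 and 7173 CPM. It was thus above both classes in 4 of 4 libraries, by 0.78 over Muc5ac-only cells (SE 0.22, adjusted p = 0.043) and by 1.04 over neck-mucin-only cells (SE 0.23, adjusted p = 0.00316). Within 2000 to 8000 UMIs the differences were 0.70 (adjusted p = 0.293) and 0.78 (adjusted p = 0.03). The call over Muc5ac-only cells was also lost without the AREG library (0.71) and without the deepest 5% of cells (0.78). The median cell had 22844, 6365, 12238 and 628 CPM among members, 11048, 2949, 2575 and 463 CPM among Muc5ac-only cells and 2991, 1909, 2937 and 1439 CPM among neck-mucin-only cells. At day 3 the median member therefore lay below the median neck-mucin-only cell, and the summed level of the members, 8153 CPM, was far above their median. Free RNA held 8081, 5498, 3493 and 2701 CPM of Tff2, below the summed level of the members in each library.

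Cell cycle genes were also counted in cells thinned to 500 UMIs, so that depth was equal and no cell was left out. The share of members with at least 2 UMIs of the G2 and M genes was 6.57% in the untreated group (3.05 to 12.1), 6.45% at day 1 (3.99 to 9.79), 7.93% at day 3 with AREG (5.86 to 10.4) and 2.80% at day 3 (1.61 to 4.50). Muc5ac-only cells gave 3.42%, 6.68%, 3.43% and 0.808%, neck-mucin-only cells 1.64%, 5.19%, 4.14% and 3.18%, and acid-pump-rich cells, as background, 0.447%, 1.34%, 1.01% and 1.10%. Members were higher than Muc5ac-only cells in 3 of 4 libraries and higher than neck-mucin-only cells in 3 of 4, each with a 2-sided p of 0.25 in an exact paired permutation test over libraries, in which 0.125 is the smallest possible. Without thinning the shares of members were 44.5%, 63.2%, 29.0% and 11.9%. For S-phase genes the thinned shares of members were 7.30%, 12.9%, 2.07% and 1.92%, against 2.62%, 7.25%, 0.945% and 0.948% in Muc5ac-only cells (higher in 4 of 4 libraries, exact paired permutation p = 0.125) and 4.78%, 15.6%, 2.42% and 2.58% in neck-mucin-only cells (higher in 1 of 4, p = 0.625). Without thinning the S-phase shares of members were 59.1%, 87.1%, 30.5% and 30.1%.

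Within the both-mucin cells the libraries were then compared by summed CPM, as log2 ratios of CPM + 1, which understate differences of low genes. A gene was called at a log2 ratio of at least 1 in size, without a test, and the comparisons share libraries. Day 1 against untreated addresses the acute injury. Of 12075 genes, 4007 were higher (33.2%) and 179 lower (1.48%), with a median log2 ratio of 0.64, which was 0.37 when the total omitted the genes of the mitochondrion and of ribosomal proteins and the next 20 by abundance. Members at day 1 were deeper (21622 against 9647 median UMIs) and held mostly Muc6 rather than Gkn3, and the part of either in these values was not tested.

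Genes of wounded epithelium were far higher in members at day 1. All 13 of the wound list were called higher, with a median log2 ratio of 3.25, or 2.61 above the median of all genes, and the list median was 2.92 in Muc5ac-only cells and 3.82 in neck-mucin-only cells. This list, like the other gene lists, was chosen with earlier results of these data known, so its counts are a description. Krt7, a keratin of ducts and simple epithelia, stood at 379 CPM at day 1 (exact Poisson interval 367 to 391) and 4.11 CPM in untreated members (1.88 to 7.81). S100a6, a calcium-binding protein, stood at 15273 against 744 CPM, and Lgals3 (galectin-3, a sugar-binding lectin) at 480 against 33.4 CPM. Sprr1a, a cornified envelope precursor, stood at 490 against 20.6 CPM, but 53.3% of the untreated UMIs came from 1 cell. In the metaplasia list 8 of 9 genes were higher (median 1.65, or 1.01 above all genes). Among them were Cd44, a hyaluronan receptor, at 23.4 against 1.37 CPM, from 3 UMIs in untreated members, and Clu at 7225 against 3021 CPM. Of 8 NRF2 targets 5 were higher, such as Gclc, which limits glutathione synthesis, at 120 against 21.5 CPM. Areg itself stood at 94.3 CPM in day 1 members and 13.7 CPM in untreated ones, with 72.4 against 9.58 CPM in Muc5ac-only cells.

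Among the named genes, several secreted products were lower at day 1. Gkn1 stood at 17526 CPM at day 1 against 77621 CPM in untreated members, Gkn2 at 22403 against 86265 CPM, Lypd8 at 48.6 against 281 CPM and Pga5 at 51.9 against 462 CPM. Mogat1, an enzyme of glyceride synthesis, stood at 56.3 against 445 CPM, and Agr2, a disulfide isomerase needed for mucin folding, at 463 against 2054 CPM. Pla2g1b, a secreted phospholipase, stood at 564 against 3127 CPM, with 57.8% of the untreated UMIs in 1 cell. Chief cell genes were called lower for 5 of 6 measured (median -2.19) and interferon genes for 4 of 6 (median -1.92), while pit genes were mixed, with 2 higher and 3 lower of 12 (median -0.57). The neck list had 3 higher and 1 lower of 6 (median 1.00), and mucin glycosylation genes 9 higher and none lower of 18 (median 0.97). These medians were 0.36 and 0.33 above that of all genes, of which 33.2% were called higher. The neck list summed to 11698.5 CPM at day 1 against 27689 CPM untreated, with Tff2 at 11214 against 27473 CPM. The makeup of the members also differed, and its part in these values was not tested. Among members with Gkn3 without Muc6, Gkn1 stood at 69650 CPM at day 1 against 91084 CPM untreated, and Gkn2 at 79256 against 98339 CPM. Gkn1 stood at 5526 against 18768.5 CPM in members with Muc6 without Gkn3, and at 13457 against 66589.5 CPM with both genes. Muc5ac-only cells had 46465 against 112108 CPM of Gkn1.

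Day 3 against day 1 addresses the early recovery. Of 12755 genes, 532 were higher (4.17%) and 1414 lower (11.1%), a split of 27.3% higher among called genes that became 44.2% without the abundant genes. The wound genes were low again, with 11 of 13 called lower (median -2.90): Krt7 stood at 7.89 CPM at day 3 against 379 CPM at day 1, and S100a6 at 757 against 15273 CPM. All 16 S-phase genes were called lower (median -2.14, and -2.11 in Muc5ac-only cells), such as Mcm5, part of the replicative helicase, at 12.1 against 60.9 CPM. Of 18 G2 and M genes, 14 were lower (median -1.10). Neck-associated Bpifb1 stood at 21.5 CPM against 389 CPM and Wfdc2, a secreted antiprotease gene of the metaplasia list, at 21.7 against 332 CPM.

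Interferon-stimulated genes showed the reverse, with 9 of 10 called higher at day 3 (median 3.26, and 3.34 in Muc5ac-only cells). Isg15, a ubiquitin-like protein induced by interferon, stood at 57.3 CPM at day 3 against 0.189 CPM at day 1, from 2 UMIs at day 1. Oasl2, an antiviral gene, stood at 86.4 against 0.663 CPM. Of 12 pit list genes, 5 were called higher and 1 lower (median 0.74). Among the named genes, Slc5a5 stood at 282 CPM at day 3 against 9.18 CPM at day 1, Lypd8 at 1016 against 48.6 CPM, Gkn1 at 95679 against 17526 CPM and Gkn2 at 89443 against 22403 CPM. Mgst2, a microsomal glutathione transferase, stood at 968 against 274 CPM. Day 1 members held mostly Muc6 without Gkn3 (52.3%) and day 3 members Gkn3 without Muc6 (68.5%). Among members with Gkn3 without Muc6, Gkn1 stood at 109764 CPM at day 3 against 69650 CPM at day 1, and Gkn2 at 101540 against 79256 CPM. Gkn1 stood at 49526 against 5526 CPM in members with Muc6 without Gkn3 (16 cells at day 3). In members with both genes it stood at 75709 against 13457 CPM. The part of this makeup in the differences was not tested. The Slc5a5 log2 ratio was 4.80 in members and 3.97 in Muc5ac-only cells.

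AREG at day 3 against day 3 alone addresses the effect of the added ligand. It gave the fewest differences of the 4 comparisons: of 11311 genes, 236 were higher (2.09%) and 249 lower (2.2%), with a median log2 ratio of 0.06. Mitotic genes were higher with AREG, with 15 of 18 called (median 1.19). The same list had medians of 1.47 in Muc5ac-only and 0.48 in neck-mucin-only cells. Ube2c stood at 215 CPM with AREG (201 to 229) against 67.3 CPM at day 3 alone (60.5 to 74.8), and Hmgb2, a chromatin protein of dividing cells, at 424 against 194 CPM. None of 16 S-phase genes was called in either direction (median 0.14). Tff2 stood at 16638 CPM with AREG against 8153 CPM at day 3, and Fos, an immediate early transcription factor, at 538 against 257 CPM.

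Interferon genes were lower with AREG in 7 of 10 cases (median -1.65, with -1.24 in Muc5ac-only and -0.64 in neck-mucin-only cells): Isg15 stood at 15.5 CPM with AREG against 57.3 CPM at day 3. Several other named genes were lower too. Gsta2, a glutathione transferase, stood at 241 against 562 CPM, Mgst2 at 472 against 968 CPM, Lypd8 at 513 against 1016 CPM and Slc5a5 at 145 against 282 CPM, of which only Gsta2 and Mgst2 passed a log2 ratio of 1 in size. Of 11 pit list genes measured, 2 were called lower and none higher (median -0.52). Genes of the EGF receptor axis were not called in either direction (8 measured, median -0.11), and Areg stood at 6.67 CPM with AREG and 6.93 CPM at day 3.

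Against untreated members, day 3 members had 3206 of 10542 genes higher (30.4%) and 363 lower (3.44%), at a median log2 ratio of 0.51. Interferon genes were higher in 9 of 10 cases (median 2.19), and 5 of 8 NRF2 targets were higher (median 1.28). Foxq1, a transcription factor needed for Muc5ac expression in the mouse stomach, stood at 232 CPM at day 3 against 58.9 CPM in untreated members, and 260 against 79.3 CPM in Muc5ac-only cells. Tff2 was lower, at 8153 against 27473 CPM, and so were 11 of 16 S-phase genes (median -1.18) and 5 of 18 G2 and M genes (median -0.86). The wound list was near its untreated level, with a median of 0.31 and 2 genes called in each direction.

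**Figure D5:**
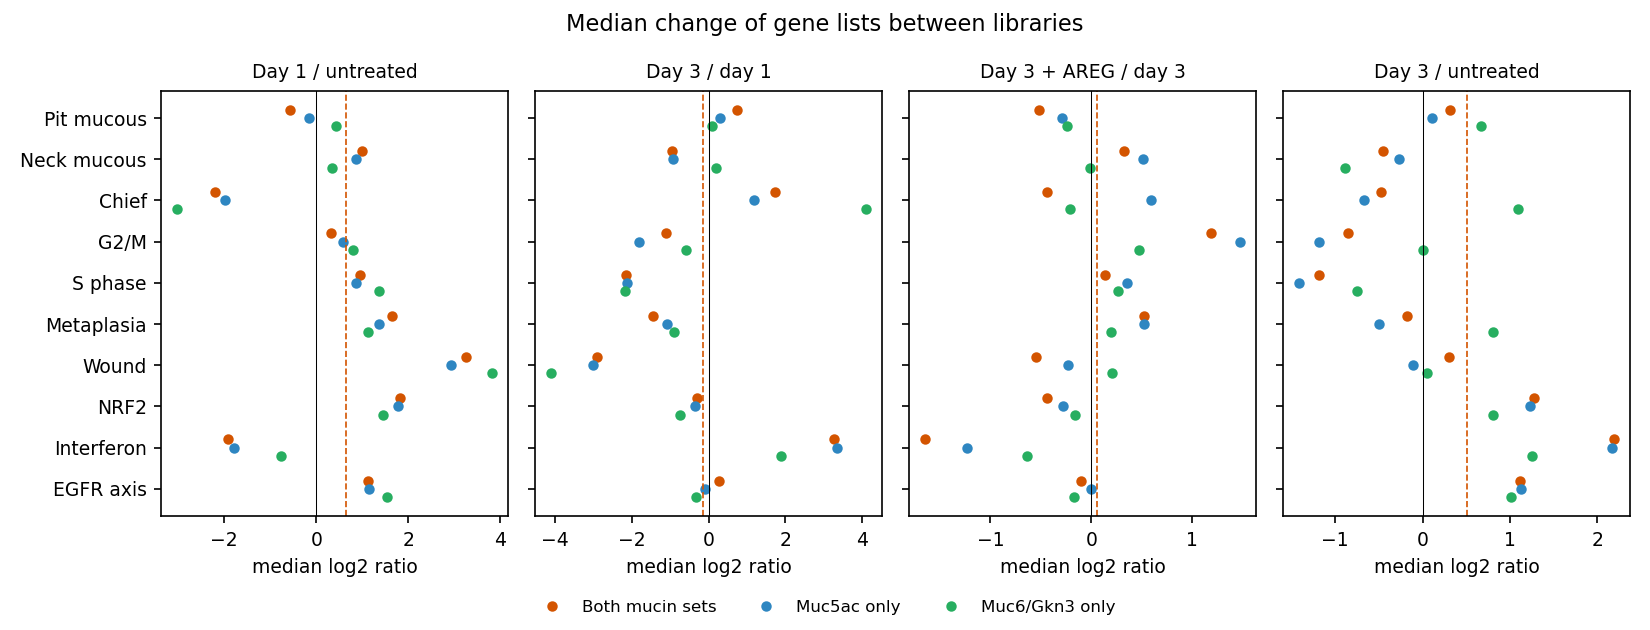
Median log2 ratio of CPM + 1 for 10 gene lists in 4 comparisons of libraries, in both-mucin, Muc5ac-only and neck-mucin-only cells; the dashed line is the median of all genes in both-mucin cells. In most lists the 3 classes moved in the same direction, as for the wound list at day 1 over untreated (3.25, 2.92 and 3.82).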

How the data were processed

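Single-cell RNA was measured with PIPseq T20 3′ capture in 4 libraries, 1 per group, so groups were compared without a test. The authors deposited raw counts (UMIs per gene and barcode) for unfiltered barcodes, per the file headers. The genome build was mm39, per the submitters' processing notes, and the aligner is not given in the sources used here. Libraries held 56007532 to 98893436 UMIs. Cells were kept by the limits given in the report, doublets were not removed, and all barcodes were taken as deposited.

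The members and the 22 gene lists were chosen with earlier results of these data known. UMIs were summed per class and library and tested with edgeR 4.0.16 (quasi-likelihood, TMM, filter on low counts, library as a block, Benjamini-Hochberg adjustment) in R 4.3.3, with DESeq2 1.42.0 as an alternative. The test code was tested on simulated data. Shares carry exact Clopper-Pearson intervals, log2 ratios of shares Katz intervals and summed levels exact Poisson intervals. Cells were thinned without replacement with numpy 2.4.6, and exact permutation tests used scipy 1.17.1. Named genes were, per comparison and direction, up to 10 with the largest change at 50 CPM or more in either class (20 CPM for genes beyond both) or 200 CPM or more in either library, besides listed genes. The 7 genes of the rule, mitochondrial, ribosomal protein, haemoglobin and immunoglobulin genes and unnamed gene models were not named. Alternatives covered the thresholds of the rule, depth, normalization, filters and each library left out. Mean of per-cell CPM, leaving out the deepest 5% of cells in the class tests, and the count of kept directions were added after seeing the data.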

Additional observations from a re-analysis of the deposited data

Results flagged for a closer look

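In 3 cases 1 library moved against the others in the share of cells thinned to 500 UMIs with cell cycle genes. None of these differences between libraries was tested, each rests on 1 library, and no cause was tested. For G2 and M genes, members minus Muc5ac-only cells gave -0.225 percentage points at day 1, against 3.15 in the untreated library, 4.50 at day 3 with AREG and 1.99 at day 3. For the same genes, members minus neck-mucin-only cells gave -0.385 points at day 3, against 4.93 in the untreated library, 1.27 at day 1 and 3.79 at day 3 with AREG. For S-phase genes, members minus neck-mucin-only cells gave 2.52 points in the untreated library, against -2.65 at day 1, -0.355 at day 3 with AREG and -0.653 at day 3.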

How the results depend on the processing

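No paired analysis was possible because each group had 1 library, which concerns comparisons of groups, while classes of cells were compared within libraries. The cause was not tested for any shift below. In the order untreated, day 1, day 3 with AREG and day 3, members were 0.0548%, 0.283%, 0.463% and 0.702% of cells thinned to 1000 UMIs and 0.214%, 1.09%, 2.18% and 2.87% at 2000. They were 1.22%, 10.9%, 5.52% and 8.79% of cells with at least 1000 UMIs, 0.345%, 4.61%, 1.98% and 3.18% with at least 3 UMIs of each set, 0.0792%, 2.09%, 0.743% and 1.01% with at least 5, 0.216%, 5.73%, 0.627% and 0.751% with Muc6 alone, and 2.76%, 13.1%, 9.81% and 14.0% of cells with either mucin. Without the deepest 5% of cells they were 0.697% of untreated cells and 5.85% of day 1 cells, and at 20% mitochondrial UMIs or fewer 5.07% at day 3 with AREG and 7.86% at day 3.

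The log2 ratio of day 1 to untreated was 4.73 with Muc6 alone, 3.74 and 4.72 with at least 3 and 5 UMIs, 2.25 among cells with either mucin, and 2.37 and 2.35 thinned to 1000 and 2000. Day 3 over day 1 gave -2.93, -0.54, -1.04, 0.10, 1.31 and 1.40 in the same order, and 0.23 without the deepest 5%. AREG over day 3 gave -0.26 with Muc6 alone, -0.45 with at least 5 and -0.40 thinned to 2000. Day 3 over untreated gave 1.80, 3.20, 3.68, 2.35, 3.68 and 3.74 in the first order, and 3.30 without the deepest 5%.

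Genes higher than in Muc5ac-only cells numbered 1 without the library block, 25 within 2000 to 8000 UMIs, 114 without the deepest 5% and 21 to 543 with 1 library left out. Lower ones numbered 0, 2, 22 and 2 to 395 in these settings, 817 without the filter and 918 with at least 3 UMIs. Against neck-mucin-only cells, 347 higher and 186 lower genes were called without the block, 1008 and 786 within the depth range, 1277 higher with at least 3 UMIs, and 1165 to 1955 higher and 669 to 1430 lower with 1 library left out. Genes higher than both numbered 0 without the block, within the depth range and without the deepest 5%, 91 against single-mucin cells with no UMI of the other set, 86 with at least 3 UMIs and 0 to 33 with 1 library left out. At an unadjusted p under 0.05, edgeR called 369 genes against Muc5ac-only cells without the block, and DESeq2 called 46 genes higher than both in its own fit. Genes lower than both numbered 7 with DESeq2, 34 without the filter, 0 without the block, 1 within the depth range, 27 with at least 3 UMIs, 2 without the deepest 5% and 0 to 10 with 1 library left out. Within the depth range, Hmgb2 (-0.12), Birc5 (-0.11) and Nusap1 (-0.39) turned lower than in neck-mucin-only cells, and 26 of the 40 genes tested among those beyond both kept their direction there.

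With a pseudocount of 10, higher and lower genes numbered 991 and 59 for day 1 over untreated, 163 and 425 for day 3 over day 1, 22 and 32 for AREG over day 3, and 854 and 99 for day 3 over untreated. Without abundant genes, 477 were lower at day 1 than untreated, 900 higher at day 3 than day 1 and 596 lower at day 3 than untreated. By mean per-cell CPM, 279 were lower at day 1 than untreated, 478 higher and 426 lower with AREG, and 641 lower at day 3 than untreated. With genes of 1 UMI or more kept, 429 were lower with AREG. Thinned to 1000 UMIs, members with G2 and M genes were 12.7%, 15.2%, 13.8% and 4.97%, and those with S-phase genes 28.2% at day 1 and 3.73% at day 3. The other 77 values that answer a comparison stayed inside the interval of the main setting or, for counts of genes, within a set factor of its count. A shift given above is a change in size and need not be one of direction.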
